A study of Mus musculus with 2 samples.

Results

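Of the 4681 YY1 peaks mapped in mouse muscle stem cells, 461 had their summit at a promoter that a protein-coding gene shares with a long non-coding RNA (lncRNA) gene. A peak was taken as a member when its summit lay within 1000 bp of a transcript start of a protein-coding gene and within 1000 bp of a transcript start of a lncRNA gene, on mm10 with the GENCODE M21 basic annotation. Summits near coding starts on both strands were left out, so that each member promoter has its coding gene or genes on 1 strand. The rule used only positions and no measured level. Among the remaining peaks, 502 were at paired coding promoters, where coding genes start on both strands, 2814 were at single coding promoters with no lncRNA start nearby, and 94 were at a lncRNA start without a coding start.

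The study asked how deletion of YY1 in muscle stem cells (MuSCs, the Pax7-expressing satellite cells that regenerate muscle fibres) alters a dystrophic muscle, and used ChIP-seq to find where YY1 sits on the genome of the control cells. ChIP-seq sequences the DNA fragments that an antibody pulls down with a protein, here antibody sc-1703, so that a bound site appears as a pile of fragments. By the study's methods the cells came from Ctrl mice, which carry intact Yy1 (Yy1+/+), the tamoxifen-inducible Pax7-CreERT2 driver and the R26YFP reporter, and which are mdx mice, lacking dystrophin. Cells of several mice were pooled and freshly isolated, while the labels describe cultured MuSCs. Its background was 1 further library, which the labels name input and the methods IgG. With 1 YY1 library there is no spread between animals or libraries. Accordingly no test between kinds of promoter was made, and the 95% intervals given below, exact binomial (Clopper-Pearson) for shares, distribution-free for medians and exact Poisson for fragments, cover counting error only. A peak list holds no expression, so the MuSC label could not be checked against marker transcripts.

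YY1 is a zinc-finger protein found in most cell types, which can activate or repress genes and helps to hold promoters and enhancers together. It recognises a short element built on the letters ATGGC, often placed just downstream of a transcript start. Many mammalian promoters with CpG-rich DNA are transcribed in both directions, and the transcript that runs away from a coding gene is often annotated as a lncRNA. Where the lncRNA starts upstream of the coding gene on the opposite strand the pair is called divergent, and where it starts inside the coding gene on the opposite strand it is called here overlapping antisense.

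The stretch of DNA between the starts of a divergent pair is the promoter that both genes share. A few of these, 4 in all, are shown because YY1 was strongly enriched in them and the summit fell between the starts. The letters come from the RefSeq copy of GRCm38 (mm10), run 5′ to 3′ on the coding strand from the base after the lncRNA start to the base before the coding start, and the capitals mark the 11 bases centred on the summit.
Tut7 and Gm34961, chr13:59823148-59823265, minus strand: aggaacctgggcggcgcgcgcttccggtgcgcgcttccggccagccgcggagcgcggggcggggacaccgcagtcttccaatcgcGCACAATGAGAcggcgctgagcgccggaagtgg
Chmp7 and 4930480K23Rik, chr14:69732535-69732783, minus strand: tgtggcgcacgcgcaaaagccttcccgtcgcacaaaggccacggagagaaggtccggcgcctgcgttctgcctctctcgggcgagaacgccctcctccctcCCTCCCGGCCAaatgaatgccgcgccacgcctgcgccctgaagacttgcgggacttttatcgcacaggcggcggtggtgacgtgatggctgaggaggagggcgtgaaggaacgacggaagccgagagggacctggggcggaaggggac
Rab35 and 1110006O24Rik, chr5:115631817-115631907, plus strand: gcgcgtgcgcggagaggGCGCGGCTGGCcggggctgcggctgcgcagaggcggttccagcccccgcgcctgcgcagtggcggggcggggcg
Setd5 and Gt(ROSA)26Sor, chr6:113077211-113077364, plus strand: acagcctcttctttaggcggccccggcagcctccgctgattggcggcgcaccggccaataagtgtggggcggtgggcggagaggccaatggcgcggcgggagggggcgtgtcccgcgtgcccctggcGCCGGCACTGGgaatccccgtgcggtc

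All 4 were rich in G and C, from 66.7% between Chmp7 and its lncRNA to 84.6% between Rab35 and its lncRNA. The Tut7 promoter, of a terminal uridylyltransferase that adds uridines to RNA ends, held 20 CpG in 118 bases. It had 3 copies of CCGGAAG, the word bound by ETS family factors, and 2 copies of GGGCGG, the GC box bound by Sp factors, counted on both strands. The Setd5 promoter, of a SET-domain chromatin protein, held 3 CCAAT boxes (searched as ATTGG), 2 GC boxes and 1 copy of ATGGC. Neither the Tut7 nor the Rab35 promoter held ATGGC between the starts. A word match describes the letters in this window and not a bound site.

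The second set shows the YY1 word AANATGGC near member summits. Each run of 30 bases is written on the strand on which the word reads 5′ to 3′, from the same reference, with the 8 letters of the word in capitals. They belong to members with the word that were among the highest in fold enrichment.
Zfp592, chr7:80993665-80993694, minus strand: gcgggagccacAACATGGCgacggcggtgg
Adam17, chr12:21373717-21373746, minus strand: acagagcccagAAGATGGCgttctgccggc
Casc3, chr11:98809850-98809879, plus strand: ccgttctccgtAAGATGGCggaccggcggc
Srsf1, chr11:88047688-88047717, minus strand: gcggccgctccAAAATGGCgcctttatcag
Tubgcp3, chr8:12672087-12672116, minus strand: ccgcttccgcgAATATGGCggcgccgtagt
Dync1li2, chr8:104442786-104442815, minus strand: ctgcagttggcAAGATGGCgccggtggggg
Mkln1, chr6:31398843-31398872, plus strand: acggtgctgacAAGATGGCggctggcgggg
Meaf6, chr4:125085163-125085192, plus strand: cgcttgagcccAACATGGCgatgcacaaca

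The members covered 441 distinct coding genes and 441 distinct lncRNA genes on 20 chromosomes, with 2 members on chromosome X. For 19 coding genes more than 1 member peak lay nearest, and Ube2d3, which encodes a ubiquitin-conjugating enzyme, had 3. In 5 members the window held 2 coding genes, and in 3 members it held 2 lncRNA genes. The lncRNAs were mostly known by clone or model names only, as 227 carried a name beginning with Gm (49.2%) and 169 a name ending in Rik (36.7%).

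YY1 enrichment at the shared promoters was like that at other coding promoters. Fold enrichment, the ratio of fragments at the summit to the local background with 1 added to each, had a median of 5.13 over the 461 members (interval 5.06 to 5.38) and ranged from 1.88 to 11.8. The median was 5.10 over all peaks, 5.13 at paired coding promoters, 5.13 at single coding promoters and 4.57 at peaks away from any of these starts. These values come from small whole numbers of fragments, so the 461 members took only 175 different values, and equal medians are common. A fold enrichment of at least 5 was reached by 265 members (57.5%, interval 52.8 to 62.0), beside 53.9% of all peaks and 57.2% of single coding promoter peaks. A q-value under 0.01 was given by the peak caller to 420 members (91.1%), beside 91.6% of all peaks. In 13 members the q-value was 0.05 or higher, and these weakest calls included the peaks at Dek, Tpt1 and Cdk11b.

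The depth behind each value was low. Fragments are here the reads as the peak caller counted them, each extended to fragment length. The sequencing was paired-end by the study's summary, and if both mates of a pair were counted the intervals are too narrow. The fragments at the summit numbered a median of 15 (from 9 to 71), against a median local background of 1.98, and each fold enrichment therefore carries a wide counting error. The member peaks were 365 bp wide in the median (from 215 to 1484). The sequence within 100 bp of the summit had a median GC content of 71.6% (interval 71.1 to 72.6), beside 69.7% in all peaks, 67.7% at paired coding promoters and 71.1% at single coding promoters. Their CpG content was near that expected from the base composition, at a median observed over expected ratio of 0.957, beside 0.920 in all peaks.

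**Figure D1:**
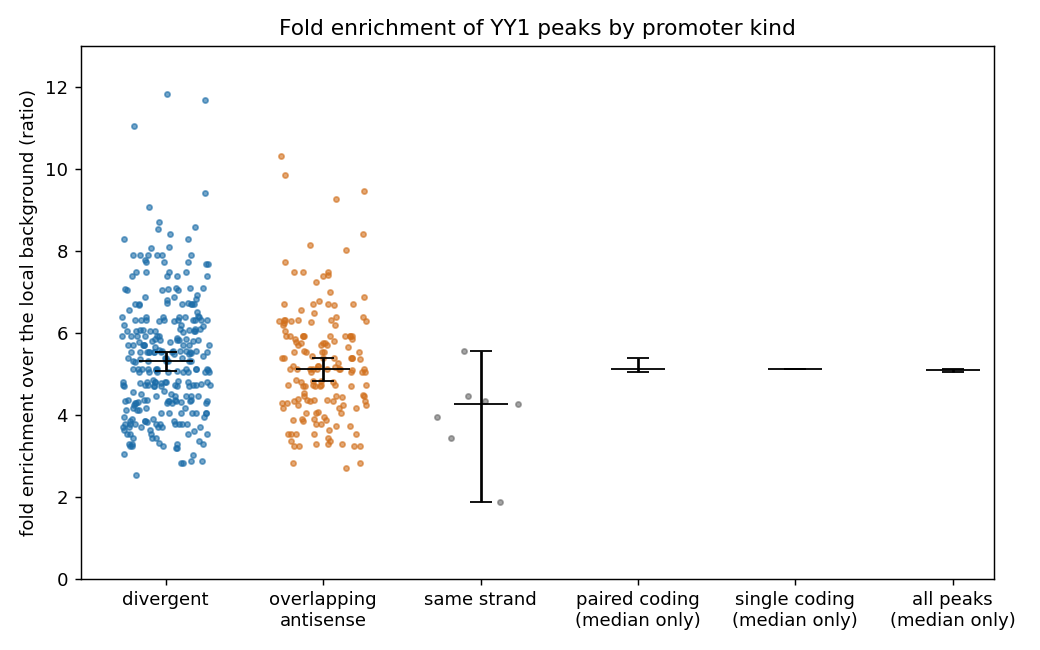
Fold enrichment (vertical axis, ratio to the local background) of each member peak as a point, by arrangement of its coding and lncRNA starts, with the median as a long dash and its 95% interval as a bar; the paired coding, single coding and all-peak groups are given by their medians alone. The medians of the 291 divergent (5.30) and 163 overlapping antisense members (5.13) lie close to the median of all peaks (5.10), and the 7 same-strand members include the lowest point, Sfi1 at 1.88.

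The member with the highest enrichment lay between Rbbp5, a core subunit of the complexes that methylate lysine 4 of histone H3, and 6030442K20Rik, at chr1:132476954-132477434. It held 29 fragments (interval 19.4 to 41.6) over a background of 1.54, a fold enrichment of 11.8. Next came Kmt2a, which encodes a catalytic subunit of the same family of complexes, with AC061963.1. This peak held 33 fragments (22.7 to 46.3) over 1.91, or 11.7-fold. Both genes thus headed the list with intervals that overlapped each other.

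The third member was at Uspl1, which encodes a SUMO protease of Cajal bodies, and Mm2pr, at 11.0-fold. The peak at Cdkn2aip, whose product binds the ARF tumour suppressor, and E030037K01Rik reached 10.3-fold with 29 fragments. Nedd4l, a ubiquitin ligase that removes sodium channels from the membrane, had 9.86-fold with the summit 61 bp upstream of its start, and A330084C13Rik starts 786 bp inside the gene on the other strand. These were followed by Ddx59, a DEAD-box RNA helicase, at 9.46-fold. The phosphatase 4 regulatory subunit gene Ppp4r3a had 9.41-fold and the zinc-finger gene Zbtb44 had 9.26-fold. Tut7 stood at 9.07-fold with 22 fragments (13.8 to 33.3). The list of 10 ended with Slc35b1, a transporter of the endoplasmic reticulum, at 8.69-fold with 28 fragments (18.6 to 40.5). Since the intervals of the fragments overlap from the first to the last, the order within the 10 is not resolved at this depth.

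The lowest member was the peak at Sfi1, a centrosome gene, and Gm12735, with 1.88-fold. It had the most fragments of any member, 71 (55.5 to 89.6), but also a local background of 37.4, beside the median of 1.98. The peak between Setd5 and Gt(ROSA)26Sor, the ROSA26 lncRNA, reached 8.08-fold with 22 fragments and was 1441 bp wide. The control mice carry the R26YFP reporter in the ROSA26 locus, and the part of that insertion in this peak was not tested. The widest member, 1484 bp, covered the start of Gabpb1, a subunit of the ETS factor GABP, at 7.73-fold.

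Of the 461 members, 291 were divergent (63.1%, interval 58.5 to 67.5) and 163 overlapping antisense (35.4%). In 7 members (1.52%) both genes ran on the same strand, among them Zfp644 with 2 peaks, Lgalsl, Hist2h2aa1, Hic2 and Sfi1. The highest same-strand peaks, both at Zfp644, a zinc-finger gene, had 5.56-fold and 4.47-fold. With gene-level starts in place of all transcript starts, the divergent share was 51.9%, so this division rests in part on which annotated start is nearest.

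Fold enrichment had a median of 5.30 at divergent members (interval 5.06 to 5.52) and 5.13 at overlapping antisense members (4.82 to 5.38). The intervals overlapped, and no difference was resolved. At divergent members the distance between the starts did not order the enrichment either. The median was 5.29 for starts 0 to 99 bp apart, 5.30 for 100 to 199 bp, 5.50 for 200 to 399 bp and 5.13 for 400 bp or more.

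By annotation class, the nearest lncRNA was of the type antisense in 216 members (46.9%), lincRNA in 99 (21.5%), processed_transcript in 82 (17.8%) and bidirectional_promoter_lncRNA in 64 (13.9%). Divergent starts made up 85.9% of the lincRNA members (interval 77.4 to 92.0) and 48.1% of the antisense members (41.3 to 55.0). The median fold enrichment was highest for bidirectional_promoter_lncRNA, at 5.71 (5.10 to 6.05), beside 5.30 for lincRNA, 5.28 for processed_transcript and 5.11 for antisense (4.80 to 5.29). The intervals of the highest and lowest type overlapped.

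YY1 summits lay closer to the nearest annotated coding start than to the nearest annotated lncRNA start. The median distance was 108 bp from the coding start (interval 95 to 120) and 239 bp from the lncRNA start (218 to 270). The summit was nearer the coding start in 323 members (70.1%, 65.7 to 74.2). It fell within 100 bp of the coding start in 217 members (47.1%), within 100 bp of the lncRNA start in 110 (23.9%) and within 100 bp of both in 57 (12.4%). The annotation holds 41525 starts for 21938 coding genes and 11469 for 9793 lncRNA genes, which leans this contrast to the coding side. With gene-level starts only, the median was 140 bp from the coding start and 238 bp from the lncRNA start. The share nearer the coding start was then 63.2% (58.4 to 67.9). At single coding promoters, with no lncRNA start to compare, the median distance from the coding start was 107 bp and 48.0% lay within 100 bp. The distance from the coding start was therefore nearly the same with and without a lncRNA start in the window.

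The divergent starts were a median of 189 bp apart, from 2 to 1440 bp, and the starts at divergent paired coding promoters were 156 bp apart. The summit lay between the starts in 135 of the 291 divergent members (46.4%, interval 40.6 to 52.3), on the coding gene side in 118 (40.5%) and on the lncRNA side in 38 (13.1%). At paired coding promoters with divergent starts, 185 of 406 summits lay between the starts (45.6%, 40.6 to 50.6). The summit thus fell between the starts about as often whether the other gene was coding or not. Where it fell outside, it was on the coding side 118 times and on the lncRNA side 38 times.

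At overlapping antisense members the starts were a median of 416 bp apart. The summit lay between them, inside the coding gene, in 79 of 163 (48.5%), upstream of the coding start in 56 (34.4%) and beyond the lncRNA start in 28 (17.2%). Measured along the coding strand, the median summit lay 56 bp downstream of the coding start (interval 35 to 111). At single coding promoters it lay 11 bp downstream (5 to 17), and 54.2% of summits there were downstream, beside 65.6% of the overlapping antisense members (57.8 to 72.9). For divergent members the share downstream was 40.5% (34.9 to 46.4). The rule keeps summits near a lncRNA start that lies downstream in overlapping antisense pairs and upstream in divergent pairs, which leans the positions the same way, so these shares are a description only.

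**Figure D2:**
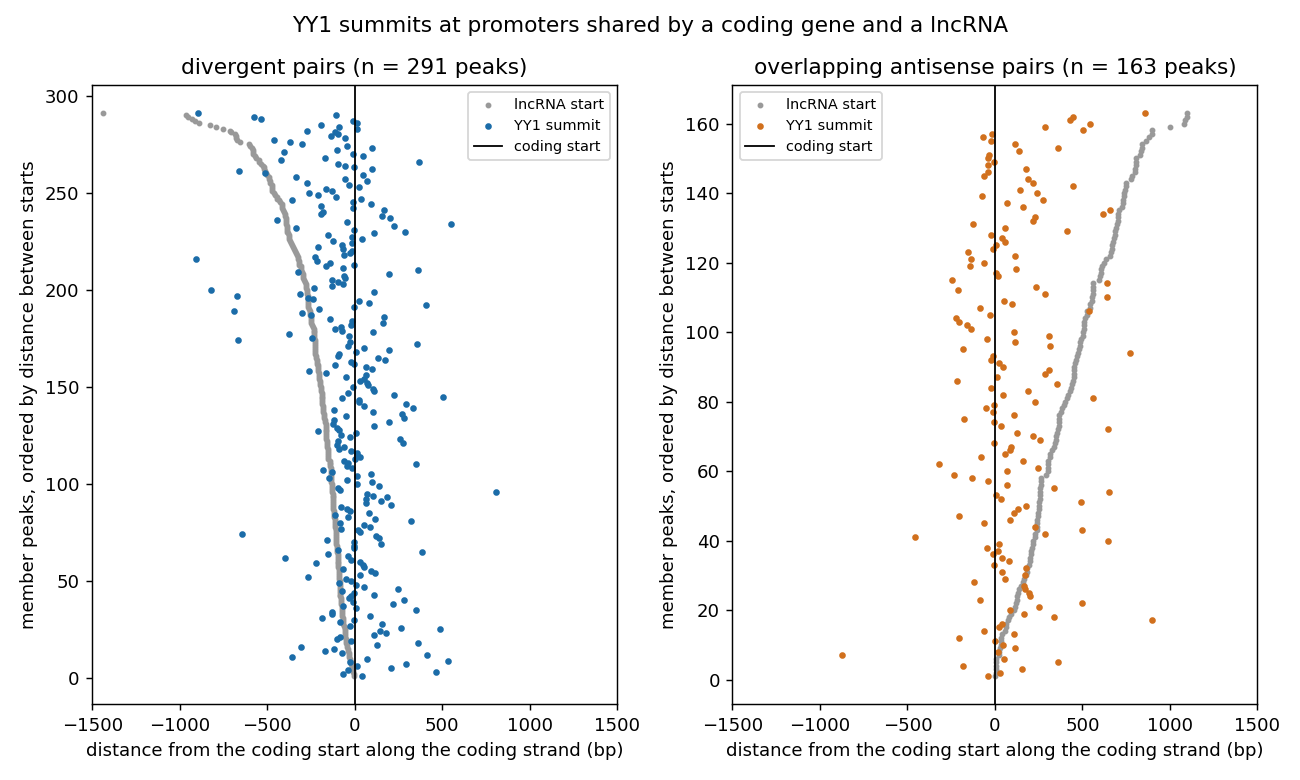
Each row is 1 member peak, with the coding start at 0, the lncRNA start in grey and the YY1 summit in colour, at their distance along the coding strand in bp; rows are ordered by the distance between the starts. Divergent pairs (291) are on the left and overlapping antisense pairs (163) on the right. The 0 of each row is the coding start nearest its summit, which by itself draws the summits toward 0, so the picture is a description only.

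In terms of annotation, 208 summits (45.1%) were in exon 1 of the coding gene, 84 (18.2%) in an intron, 4 in a later exon and 165 (35.8%) outside it. For the lncRNA gene, 266 summits (57.7%) were outside it, 117 (25.4%) in exon 1, 63 in an intron and 15 in a later exon. The called interval covered the coding start in 320 members (69.4%, interval 65.0 to 73.6) and the lncRNA start in 189 (41.0%, 36.5 to 45.6). It covered both in 155 (33.6%).

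The window of 1000 bp is a choice, and the peaks beside its edge looked alike. Just inside were Lgalsl with Gm12037 at 983 bp and 4.34-fold, Gnb2 with Gm17112 at 946 bp and 3.64-fold, and Hnrnpl with Gm44702 at 943 bp and 4.78-fold. Just outside were Hist2h2aa2 with Gm20632 at 1012 bp and 4.52-fold, Txlnb with Gm20655 at 1014 bp and 3.33-fold, and Morf4l2 with BC065397 at 1020 bp and 5.52-fold. In all of these pairs the lncRNA start decided whether the peak was a member.

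The YY1 word AANATGGC was looked for on either strand, up to 100 bp from the summit. It was found in 36 members (7.81%, interval 5.53 to 10.6), beside 6.63% of all peaks. Within 50 bp it was found in 4.77% of members and 3.46% of all peaks, and within 250 bp in 17.4% of members and 14.1% of all peaks. At 100 bp the share was 7.07% at single coding promoters and 9.96% at paired coding promoters, and by arrangement 18 divergent (6.19%), 15 overlapping antisense (9.20%) and 3 same-strand members held it. In windows of the same length centred on the starts of all coding genes, 5.31% held the word. At coding starts with a lncRNA start nearby it was present in 9.13% of those with a YY1 peak (6.55 to 12.3) and in 6.01% of those without (4.64 to 7.64). Most members thus had no AANATGGC in this window, as was the case for most peaks.

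Kmt2e, a chromatin modifier gene by its symbol, had the word 2 times, so the 36 members held 37 sites. The form AAGATGGC made up 17, AAAATGGC 10, AACATGGC 7 and AATATGGC 3. The base that followed was G in 30 sites (81.1%), and 15 sites continued with GGC. The median site was 37 bp from the summit (interval 30 to 54).

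The sites were placed with respect to the coding gene. Positions were measured from the base at which the word begins on its own strand, so a word counted as downstream can lie across the start. Of the 37, 30 were downstream of the coding start (81.1%, interval 64.8 to 92.0) and 27 read on the coding strand (73.0%, 55.9 to 86.2). Their median position was 45 bp downstream of the coding start (26 to 78). At single coding promoters 68.4% of 209 sites were downstream and 61.2% on the coding strand, at a median of 20 bp downstream (10 to 29). The shares of both kinds of promoter had overlapping intervals. At coding starts without a peak the word also read mostly on the coding strand, in 61.5% of 65 sites with a lncRNA start nearby (48.6 to 73.3) and 65.3% of 680 sites without, so this strand is not particular to promoters with a peak. Among the 19 sites of divergent members, 14 were on the coding gene side, 4 between the starts and 1 on the lncRNA side, at Arid4a.

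In 14 of the 37 sites (37.8%, interval 22.5 to 55.2) the ATG inside the word was the annotated start codon of the coding gene. The genes were Casc3, Dync1li2, Mkln1, Meaf6, Sec62, Tmem11, Usp15, Prmt1, Gpr107, Chchd1, Lgalsl, Dnaaf5, Sf3b2 and Ell2. The share was 25.8% of the sites at single coding promoters and 38.9% at paired coding promoters. It was also 26.2% of 65 sites at coding starts with a lncRNA start nearby but no peak, and 31.8% of 680 sites at coding starts with neither. The word thus held a start codon at promoters without a YY1 peak as well.

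**Figure D3:**
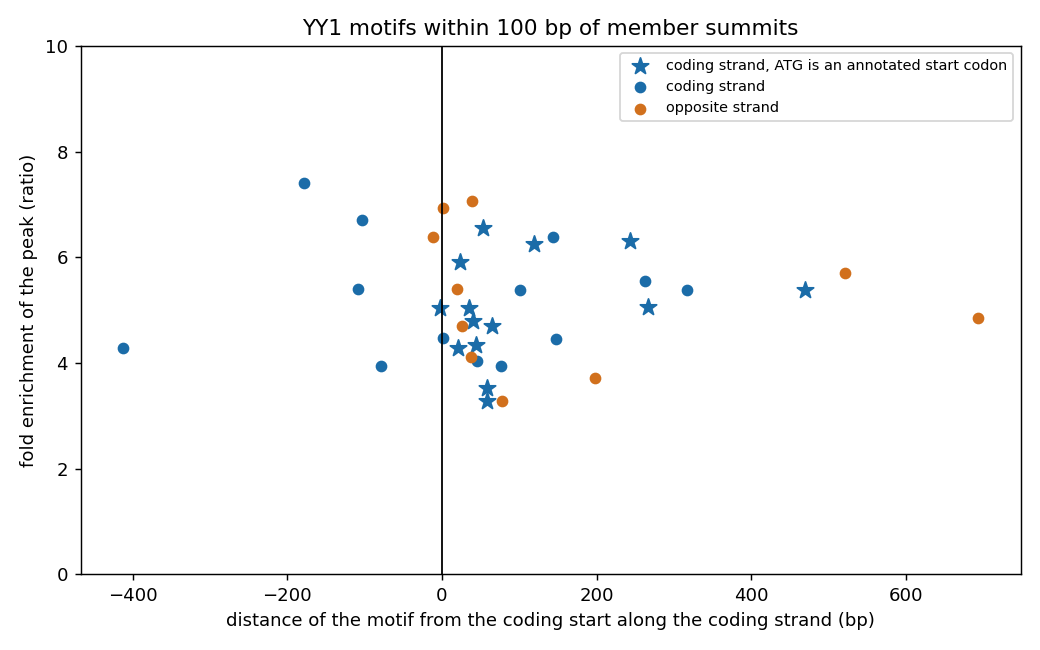
Position of the 37 AANATGGC sites within 100 bp of member summits (horizontal axis, distance from the coding start along the coding strand in bp) against the fold enrichment of their peak (vertical axis, ratio). Blue sites read on the coding strand (27), orange on the opposite strand, and stars mark the 14 sites whose ATG is an annotated start codon; 30 sites lie to the right of the coding start.

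Members with the word near the top in fold enrichment had these values. Seh1l, a nucleoporin gene whose letters are not shown, had 7.06-fold and AACATGGC on the opposite strand. The peak at Zfp592, a zinc-finger gene, had 6.93-fold. Its word read on the opposite strand and lay across the coding start, beginning 2 bp downstream of it. At Adam17, the protease that releases TNF from the cell surface, the 6.70-fold peak had its site 103 bp upstream of the coding start and 30 bp upstream of the lncRNA start, between the starts.

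Casc3, a core protein of the exon junction complex, had 6.56-fold with the start codon in the word. The splicing factor gene Srsf1 and the gamma-tubulin complex gene Tubgcp3 each had 6.39-fold with 18 fragments. In Srsf1 the word AAAATGGC read on the opposite strand, 12 bp upstream of the coding start, and in Tubgcp3 it read on the coding strand, 143 bp downstream. Dync1li2, a dynein light intermediate chain, had 6.31-fold, and Mkln1, which encodes muskelin, a part of a ubiquitin ligase complex, had 6.25-fold. In both the word AAGATGGC held the start codon. Meaf6, a subunit of histone acetyltransferase complexes, had 5.92-fold with its start codon in AACATGGC, 23 bp downstream of the transcript start.

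The shorter core ATGGC was found in 139 members (30.2%), as in 29.9% of all peaks and 31.3% of all coding starts. It was in 39.9% of overlapping antisense members (interval 32.3 to 47.8) and 23.7% of divergent members (18.9 to 29.0). The rule leans the summits of these arrangements to different sides of the coding start, so these shares are a description only. In 320 members the summit window held the GC box GGGCGG (69.4%, 65.0 to 73.6), beside 59.4% of all peaks, 66.3% at single coding promoters and 57.8% at paired coding promoters (53.3 to 62.1). In windows centred on the coding start, it was in 66.3% of those with a lncRNA start nearby and a peak, 52.7% of those with a lncRNA start and no peak, and 40.0% of all. The ETS word CCGGAAG was in 74 members (16.1%, 12.8 to 19.7), beside 11.7% of all peaks, 12.5% at single and 17.9% at paired coding promoters. Centred on the coding start it was in 75 of 416 windows with a lncRNA start nearby and a peak, 122 of 1032 with a lncRNA start and no peak (11.8%), and 9.59% of all. No member had a CCGGAAG that overlapped an AANATGGC.

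Other promoter words were less frequent near the summits, and for these the place of the window mattered. The CCAAT box, searched as ATTGG, was in 63 members (13.7%, interval 10.7 to 17.1), beside 15.9% of all peaks and 28.2% of all coding starts. In windows centred on the coding start instead of the summit, the share was 27.4% for coding genes with a lncRNA start nearby and a peak, so member summits and coding starts cannot be set side by side for this word. The TATA box word TATAAA was in 6 members (1.30%), beside 1.77% of all peaks. Around coding starts it was in 3.13% of those with a lncRNA start nearby and a peak and in 8.08% of all. The cyclic AMP response word TGACGTCA was in 8 members (1.74%), beside 2.27% of all peaks, and in 5.05% of the start-centred windows with a lncRNA start nearby and a peak. All these words were read on both strands in windows of the same length.

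Looked at from the side of the genes, coding genes with a lncRNA start nearby had a YY1 peak more often than those without. A summit lay within 1000 bp of a start for 4119 of 21938 coding genes, 18.8%. Among the 1624 genes with a lncRNA start within 1000 bp and no coding start on the other strand, 474 had a peak (29.2%, interval 27.0 to 31.5). Among the 18010 genes with neither nearby, 2635 had one (14.6%, 14.1 to 15.2). The share was higher again for the 2251 genes with an opposite coding start nearby, of which 979 had a peak (43.5%, 41.4 to 45.6).

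Genes with several start sites have more sequence within reach of a summit, and the order was therefore also read over genes with 1 start site. There the share was 25.2% with a lncRNA start nearby (interval 22.0 to 28.7), 41.5% with an opposite coding start (38.4 to 44.7) and 12.2% with neither (11.5 to 12.9). These intervals did not overlap, and no test was made, as genes of 1 library are not replicates. Among genes whose lncRNA neighbours were all divergent, 260 of 818 had a peak (31.8%, 28.6 to 35.1), and among those whose neighbours were all overlapping antisense, 150 of 585 (25.6%, 22.1 to 29.4). Base composition moved with the same division. Among coding starts without a peak, GGGCGG was in 52.7% of those with a lncRNA start nearby and 32.0% of those without, and its part in the difference in bound genes was not tested.

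The reverse view gave a wide contrast. Of 9793 lncRNA genes, 549 had a YY1 summit within 1000 bp of a start (5.61%). Of the 1664 lncRNA genes with a coding start nearby 451 had one (27.1%), and of the 8129 with none 98 had one (1.21%, interval 0.980 to 1.47). YY1 peaks at lncRNA starts were thus mostly peaks at promoters that also serve a coding gene.

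**Figure D4:**
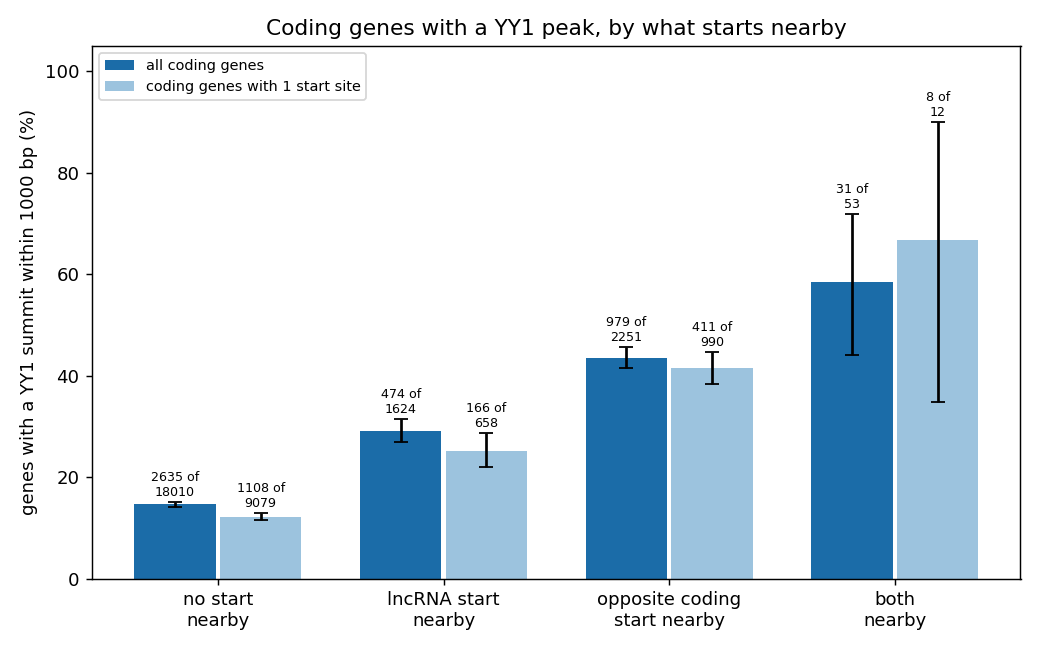
Percent of coding genes with a YY1 summit within 1000 bp of a start (vertical axis), by whether a lncRNA start or an opposite-strand coding start lies nearby; dark bars are all coding genes, light bars those with 1 start site, whiskers are 95% binomial intervals, and the counts stand above. The share rises from 14.6% with neither to 29.2% with a lncRNA start and 43.5% with an opposite coding start.

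The coding genes were next sorted into groups by their symbols. Over all 21938 coding genes, 441 lay nearest a member summit, 2.01%, and 18.8% had a peak of any kind. Among 189 chromatin and histone modifier genes, 13 lay at a member (6.88%), and 52.4% had a peak of any kind. Their 14 member peaks had a median of 5.39-fold and included Kmt2a, Kmt2c, Kmt2d and Kmt2e, which share a symbol stem. The 2 highest were Kmt2a and Setd5. The plant homeodomain protein gene Ing2 and the histone demethylase gene Kdm7a had 7.89-fold each, and Eed, a core subunit of Polycomb repressive complex 2, had 5.38-fold with 15 fragments.

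Among 286 RNA processing genes, 14 lay at a member (4.90%) and 43.4% had any peak. Ddx59 was the highest, followed by Rbm42, an RNA-binding protein gene, at 7.89-fold. Several splicing genes were present, namely Srsf1, Srsf5, Snrpe, Prpf3, Prpf4b, Sf3b2, Lsm2 and Hnrnpl, with values from 3.53-fold to 6.39-fold. For transcription factor genes, most of them zinc-finger genes, the counts were 31 at a member of 725 (4.28%) and 26.8% with any peak. Zbtb44 was the highest and Zfp532 the next at 7.73-fold. The oxidative stress factor gene Nfe2l2 had 2 member peaks, of 5.12-fold and 5.05-fold, and the forkhead factor gene Foxo1 had 2 of 4.34-fold each.

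Of 504 ubiquitin and proteasome genes, 15 lay at a member (2.98%) with 17 peaks and the highest group median, 5.71-fold, and 35.5% had any peak. Uspl1, which acts on SUMO rather than ubiquitin, was at the top, followed by Ube2j1, an enzyme of protein degradation at the endoplasmic reticulum, at 8.52-fold. The 3 peaks of Ube2d3 had 5.12-fold, 4.16-fold and 3.84-fold, each nearest to a different annotated start of the gene. The proteasome genes were Psmc3 at 5.71-fold and Psmd3 at 5.26-fold.

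Translation genes had the lowest group median, 4.48-fold over 6 genes of 224 (2.68%), none above the 5.44-fold of the ribosomal protein gene Rpl10a, while 41.1% of the 224 had a peak of any kind. Rps10 was the next at 4.80-fold. The 7 mitochondrial genes (2.51% of 279, of which 35.8% had any peak) had a median of 4.79-fold and were led by Mrps26, of the mitochondrial ribosome, at 6.31-fold, and Ndufaf3, an assembly factor of respiratory complex I, at 5.38-fold. These groups hold few peaks, and their ranges overlapped those of every other group.

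Membrane trafficking was represented by 11 genes (3.68% of 299, of which 32.8% had any peak), which had a median of 5.13-fold, led by Rab35, a GTPase of endosome recycling, at 8.28-fold with 20 fragments, and Ap3b1, of the AP-3 adaptor, at 7.10-fold. In the kinase and phosphatase group there were 6 genes (2.71% of 221, of which 34.8% had any peak), with Ppp4r3a and the kinase gene Stk25 at 8.15-fold the highest. The cell cycle and repair group held 9 genes (3.37% of 267, of which 31.5% had any peak), led by Cdkn2aip and then Cdc5l at 6.05-fold. Its members also have other roles, since Cdc5l, Ccnl1 and Cdk11b act in splicing and Ccnt2 in transcription elongation. The DNA damage kinase gene Atr had 3.64-fold.

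**Figure D5:**
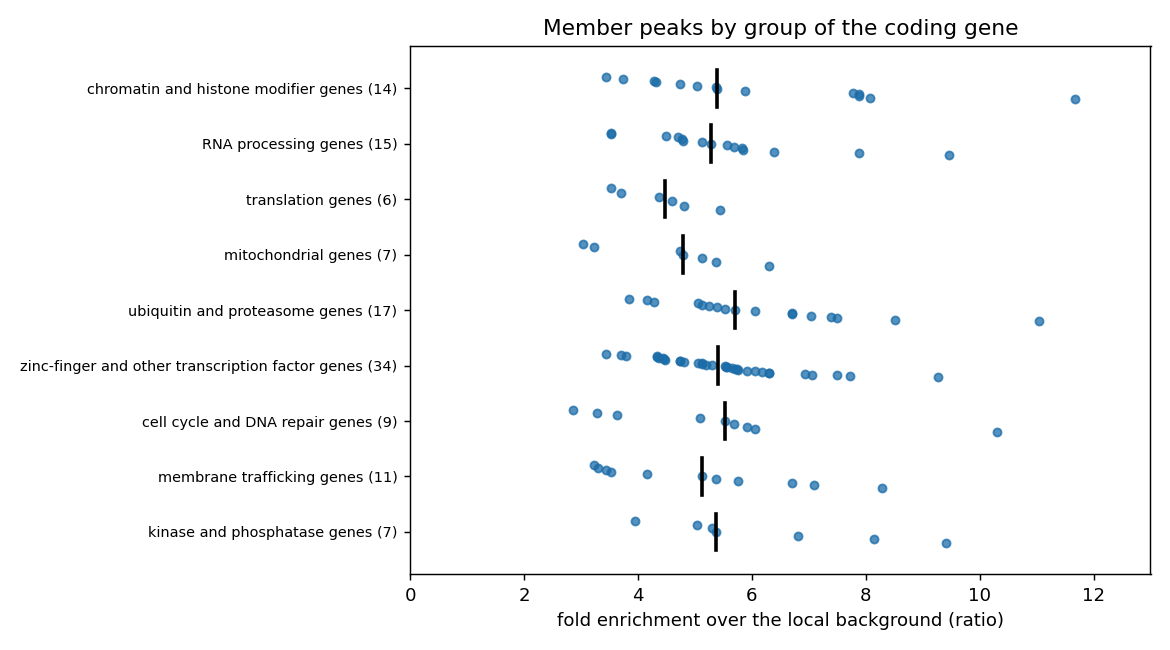
Fold enrichment (horizontal axis, ratio) of the member peaks in each group of coding genes, with 1 point per peak, a black bar at the group median and the number of peaks in parentheses. Ranges overlap between all groups, with medians from 4.48 (translation) to 5.71 (ubiquitin and proteasome).

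Muscle stem cell genes were not among the members. Of 40 genes on a list of satellite cell and myogenic regulators, 0 lay at a member summit. A peak at a single coding promoter was found for 9 (22.5%), beside 18.8% of all coding genes with a peak of any kind. These were Dag1, Fgfr1, Hey1, Mef2a, Mef2d, Notch2, Pax7, Rbpj and Sdc3. The highest was Notch2, a receptor that keeps satellite cells quiescent, at 8.17-fold, and the lowest was Pax7, the factor that defines these cells, at 2.65-fold. Taking 3 counts as the limit that a count of 0 allows, 0 of 40 genes allows a share of up to 7.50%, which includes the 2.01% of all coding genes.

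Of all 9793 lncRNA genes, 441 lay nearest a member summit, 4.50%. Of 16 small nucleolar RNA host genes 2 were at a member (12.5%), and of 61 other lncRNAs listed by name 2 (3.28%), which are counts too small to be told apart from that background. A peak of any kind was at 6 of the 16 host genes (37.5%) and 8 of the 61 others (13.1%), beside 5.61% of all lncRNA genes. These lists are short, and no test was made. Gas5, which overlaps Zbtb37, had 5.76-fold with 16 fragments (interval 9.15 to 26.0), and the summit was 14 bp downstream of the Gas5 start. Snhg9, divergent to the ribosomal protein gene Rps2, had 4.59-fold with 11 fragments (5.49 to 19.7), and the summit was 53 bp downstream of its start. Both summits lay nearer the lncRNA than the coding start. Tug1, divergent to Morc2a, had 3.53-fold with 13 fragments, with the summit 108 bp downstream of the Morc2a start and 487 bp from that of Tug1. Platr23, divergent to Zfp281, had 4.80-fold. Outside these lists, Rmrp, the RNA component of the RNase MRP enzyme, is divergent to Ccdc107 and had 5.58-fold with 20 fragments, with the summit 25 bp downstream of the Rmrp start.

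A larger set was made of lncRNAs named as the opposite strand of a coding gene, of which 23 of 287 were at a member (8.01%, beside 4.50% of all lncRNA genes), with a median of 5.30-fold. Such names are given to lncRNAs beside a coding gene, which the rule for members also requires, so that share reads nothing beyond the rule. Of the 287, 9.76% had a peak of any kind, beside 5.61% of all lncRNA genes and 27.1% of lncRNA genes with a coding start nearby. The 287 were picked by name and not by a coding start within 1000 bp, so the 27.1% is not a like comparison. They included Rsf1os2 beside Clns1a at 7.89-fold and Tmem147os at 6.31-fold. Sp3os, antisense to the GC box factor gene Sp3, had 6.18-fold, and Ino80dos, divergent to a chromatin remodeller gene, had 5.88-fold. Lower values were seen at Runx2os1, antisense to the bone factor gene Runx2, with 5.19-fold, at Zfp335os with 4.38-fold and at Arf4os with 3.43-fold. Zfp335os had 25 fragments, more than any other of these 23, over a background of 4.94.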

How the data were processed

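YY1 ChIP-seq was analysed from 1 library of MuSCs and its peak list, called against 1 background library that was not analysed on its own here. Per the labels and methods, the authors aligned the trimmed reads with Bowtie2 on mm10, removed duplicates and ran MACS2 (versions not given in the sources used here). The deposited fold enrichment is the ratio at the summit, and the caller's significance was deposited as a −log10 p-value and a −log10 q-value. The deposited integer score was not used. The library held about 13400000 counted reads, called fragments here, computed from the lowest local background (1.54), the shortest peak (215 bp, taken as the fragment length) and the genome size MACS2 uses for mouse. The study also states its read numbers, which were not used. Fragments per summit were recovered as whole numbers for all 4681 peaks (tolerance 0.001 in −log10 p).

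Starts were the 5′ ends of GENCODE M21 basic transcripts. The classes of lncRNA were lincRNA, antisense, processed_transcript, bidirectional_promoter_lncRNA and lncRNA. The nearest coding and lncRNA starts set the arrangement. Bases were read from RefSeq GRCm38. Gene groups were symbol patterns. The members, lists and words were chosen with earlier results of these data known. Genes were named by rule, as the 10 highest members, the 4 highest per arrangement, the 10 highest with AANATGGC (1 of them is not reported here), those at the window's edge, the 2 highest per group and listed lncRNAs. Others named (for instance Chmp7, Setd5, Gabpb1, Sfi1, Rmrp and the genes with several peaks) were chosen after their values were seen.

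Placement, word search and fragment recovery were tested on simulated data and recovered 700 of 700 summits, 200 of 200 planted words and 500 of 500 fragment numbers. Software was Python 3.11.15, samtools 1.23.1 (indexing), pysam 0.24.0 (bases), pandas 2.3.3 and numpy 2.4.6 (tables), scipy 1.17.1 (intervals) and matplotlib 3.10.9 (plots). Alternatives covered the window, annotation, lncRNA classes, limits on q and fold enrichment, and the word and its window.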

Additional observations from a re-analysis of the deposited data

How the results depend on the processing

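Of 77 alternative values, 60 stayed close to the value reported and 17 moved further. Close means within its counting interval, or within 1.5 times for the number of members, which ran from 317 to 533 in the close ones. With a window of 500 bp the divergent share was 70.9% and the median distance from the lncRNA start 188 bp, and with 2000 bp that distance was 287 bp. With gene-level starts only, the divergent share was 51.9%, the median distance from the coding start 140 bp and the share nearer the coding start 63.2%. With q under 0.01, the share of members at 5-fold or more was 63.1% and the share of coding genes with a lncRNA start nearby that had a peak was 26.5%. With peaks of at least 5-fold only, members numbered 265, their median was 5.92-fold, the distance from the lncRNA start 214 bp and the share of such genes with a peak 17.4%, beside 8.66% of genes with neither start nearby. AANATGGC was in 4.77% of members within 50 bp and 17.4% within 250 bp of the summit, AAGATGGC in 3.69% and ATGGC in 30.2% within 100 bp. Genes with 1 start site gave 25.2%, an alternative chosen after seeing the data, as was the comprehensive annotation, under which 479 peaks were members. No paired analysis was possible because YY1 was measured in 1 library, and for the same reason no replicate could be left out. About 15 fragments per summit limit the order of single peaks.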
